A study of Mus musculus with 36 samples.

Results

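The comparison described here set the Ikaros line against its control line at 12 h after drug, in the mouse pre-B cell line B3. The members were chosen by their labels. They are the 3 Ikaros and the 3 control libraries collected at 12 h in culture batches 1, 3 and 4, which makes 6 of the 36 mRNA-seq libraries of the time course, and all 12762 genes of the deposited table were described. Ikaros cells were B3 cells transduced with an MSCV retroviral vector for haemagglutinin-tagged wild-type Ikaros fused to the hormone-binding domain of the estrogen receptor (HA-Ikaros-ERt2-IRES-GFP). Control cells carried the same vector with ERt2 and GFP but without Ikaros. Both lines were sorted for GFP and expanded, so each line is a pool of transduced cells and the 3 libraries of a line are repeat time courses of that pool. Both received the estrogen receptor ligand 4-hydroxy-tamoxifen (4-OHT) at 0.5 uM, which sends the fusion protein to the nucleus, so the control line is the background for drug, vector and culture. By their descriptions and by the methods of the study the 12 h cells had 12 h of drug, although the treatment text of the labels gives 2 h before collection for every library of the series.

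Ikaros, the product of Ikzf1, is a zinc finger transcription factor of lymphocytes and a common tumour suppressor in B cell leukaemia. Large pre-B cells divide under signals from the interleukin 7 receptor and from the pre-B cell receptor, in which the surrogate light chain (Igll1 with Vpreb1 or Vpreb2) pairs with the immunoglobulin heavy chain. To become small, resting pre-B cells they shut down the surrogate light chain, Myc and the D-type cyclins, and turn on the recombinase Rag1 and Rag2 to rearrange the light chain genes.

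The values are log2 expression levels after the normalization of the authors. They are not counts, so the sequencing depth behind them is unknown and the 3 libraries per group set the precision. Each library correlated with the others of its line at 12 h at a Pearson r of 0.965 to 0.988 over 6 pairs, and across the lines at 0.917 to 0.942 over 9 pairs, both over all genes of the table, and genes do not count as replicates. The median gene SD was 0.189 among control and 0.223 among Ikaros libraries. The libraries held the markers of the labelled cell type. All 12 pre-B cell markers were in the table, and Cd79a, Cd79b, Pax5, Ebf1, Vpreb1, Igll1 and Cd24a had a mean level over all libraries above that of at least 94.3% of genes, whereas Dntt was above 16.6%. Of the markers of other cells, 4 of 12 for T cells, 2 of 12 for myeloid cells, 5 of 10 for erythroid cells and megakaryocytes, 2 of 10 for stroma and 1 of 5 for plasma cells were in the table. Among these 14 genes, Vim (higher by 0.92), Gata3 (1.62), Itgam (3.65), Lyz2 (-2.37), Lck (-0.60) and Tcf7 (-1.52) differed between the lines at 12 h on the log2 scale. Itgam ranged from 4.61 to 5.24 in control and from 8.37 to 8.81 in Ikaros libraries, and Lyz2 from 6.98 to 7.35 and from 3.91 to 5.99, with means above those of 5.8% and 7.6% of genes. The calls of Gata3, Lyz2, Lck and Tcf7 were each lost in 1 to 7 of 16 alternative analyses. The part of such cells in the results was not tested. The control and Ikaros libraries at 12 h came from different library preparation runs by the study's own account, and the authors adjusted for the run before deposit, so what is left of it cannot be told apart from the line.

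Expression differed widely between the lines at 12 h. With limma over all genes, 2938 genes were higher in Ikaros cells, which is 23.0% of the 12762 genes tested, and 2912 were lower, which is 22.8%. Of these 5850 genes, 2228 differed by at least 1 on the log2 scale (1129 higher and 1099 lower) and 586 by at least 2 (323 higher and 263 lower). The median size of a called difference was 0.80, and the median difference over all genes was -0.01. In a fit of only the 12 h libraries with culture batch as a block, 3483 genes were called, 1798 higher and 1685 lower, and without replicate 2 of every group (culture batch 3, or batch 2 at 0 h) 3769 were called. For 5505 of the called genes (94.1%) the 3 libraries of one line all lay beyond the 3 of the other. Over all genes the Ikaros libraries all lay above the control libraries for 25.6% and all below for 25.4%. Within culture batches, 5717 of the called genes had the same sign in batches 1, 3 and 4. They were called on these same libraries, and groups that do not overlap must have the same sign in every batch. The differences of the 3 batches correlated across all genes at 0.740, 0.702 and 0.701. In bulk libraries such as these, a lower level can reflect fewer cells that make a transcript or less of it per cell, and these cannot be told apart.

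**Figure D1:**
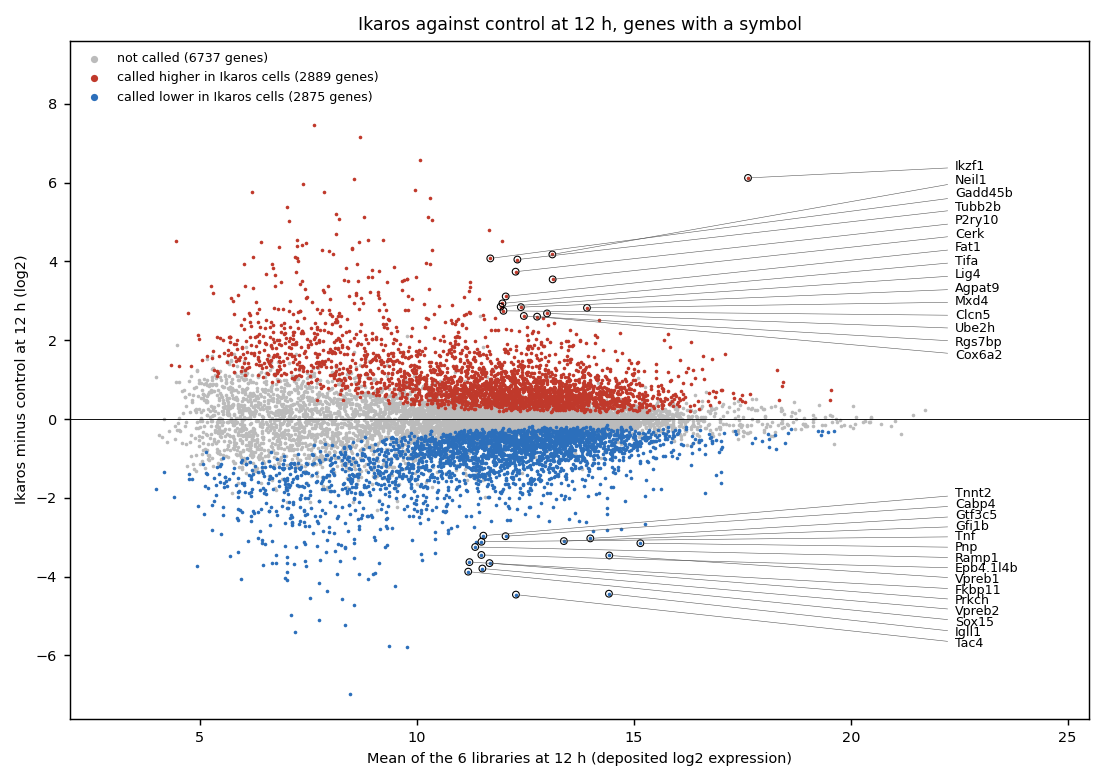
Difference between Ikaros and control at 12 h (log2, vertical axis) against the mean log2 expression of the 6 libraries (horizontal axis) for the 12501 genes with a symbol. Of these, 2889 were called higher (red), 2875 lower (blue) and 6737 not called (grey), and the 15 largest rises and 15 largest falls among genes at or above the median level are circled and named, with Ikzf1 highest at 6.12 and Tac4 lowest at -4.46.

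Ikzf1 itself (ENSMUSG00000018654, chr11:11685003-11772926 on GRCm38) checks the labels. Its level in batches 1, 3 and 4 was 14.85, 14.61 and 14.26 in control and 20.76, 20.79 and 20.52 in Ikaros libraries. The groups were far apart, with a difference of 6.12 ± 0.18 (SE, adjusted p = 8.13e-19), 69.5-fold higher, and reads from the vector and from the gene cannot be told apart. The gap was already 5.19 at 0 h, before the drug that moves the protein to the nucleus.

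Beside Ikzf1, the 14 largest rises among genes at or above the median level were, in order, Neil1, Gadd45b, Tubb2b, P2ry10, Cerk, Fat1, Tifa, Lig4, Agpat9, Mxd4, Clcn5, Ube2h, Rgs7bp and Cox6a2, with differences of 4.18 down to 2.60. Neil1, a DNA glycosylase that starts base excision repair, stood at 11.03, 11.25 and 10.82 in control and 15.26, 15.12 and 15.25 in Ikaros libraries. This is a difference of 4.18 ± 0.17 (SE, adjusted p = 2.65e-16), 18.1-fold higher, and the Ikaros libraries differed among themselves by less than the control ones. Cerk, the ceramide kinase, was at 11.72, 11.24 and 11.12 in control and 15.01, 14.77 and 14.92 in Ikaros libraries, with a difference of 3.54 ± 0.14 (SE, adjusted p = 1.92e-16). P2ry10, a G protein-coupled receptor of lymphocytes for lysophospholipids, was at 10.51, 10.59 and 10.12 in control and 14.08, 13.80 and 14.56 in Ikaros libraries. Every Ikaros library lay above every control library for these 3 genes, which the naming rule required. For Tubb2b, a beta tubulin with close paralogs, the levels were 10.21, 10.66 and 10.00 in control and 14.53, 14.11 and 14.37 in Ikaros libraries. Agpat9, an acyltransferase of glycerolipid synthesis now called Gpat3, had a difference of 2.84 ± 0.10 (SE, adjusted p = 4.21e-17). Some of these genes differed before drug. Gadd45b, a stress-induced regulator of kinase signalling, had a difference of 4.08 at 12 h that was no larger than the one before drug (4.46), and the change between them (-0.38) was not called (limma adjusted p = 0.392). Clcn5 (an endosomal chloride transporter) and Rgs7bp (a binding protein of G protein regulators) were likewise higher at 0 h, by 1.82 and 1.97, with no called change to 12 h.

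**Figure D2:**
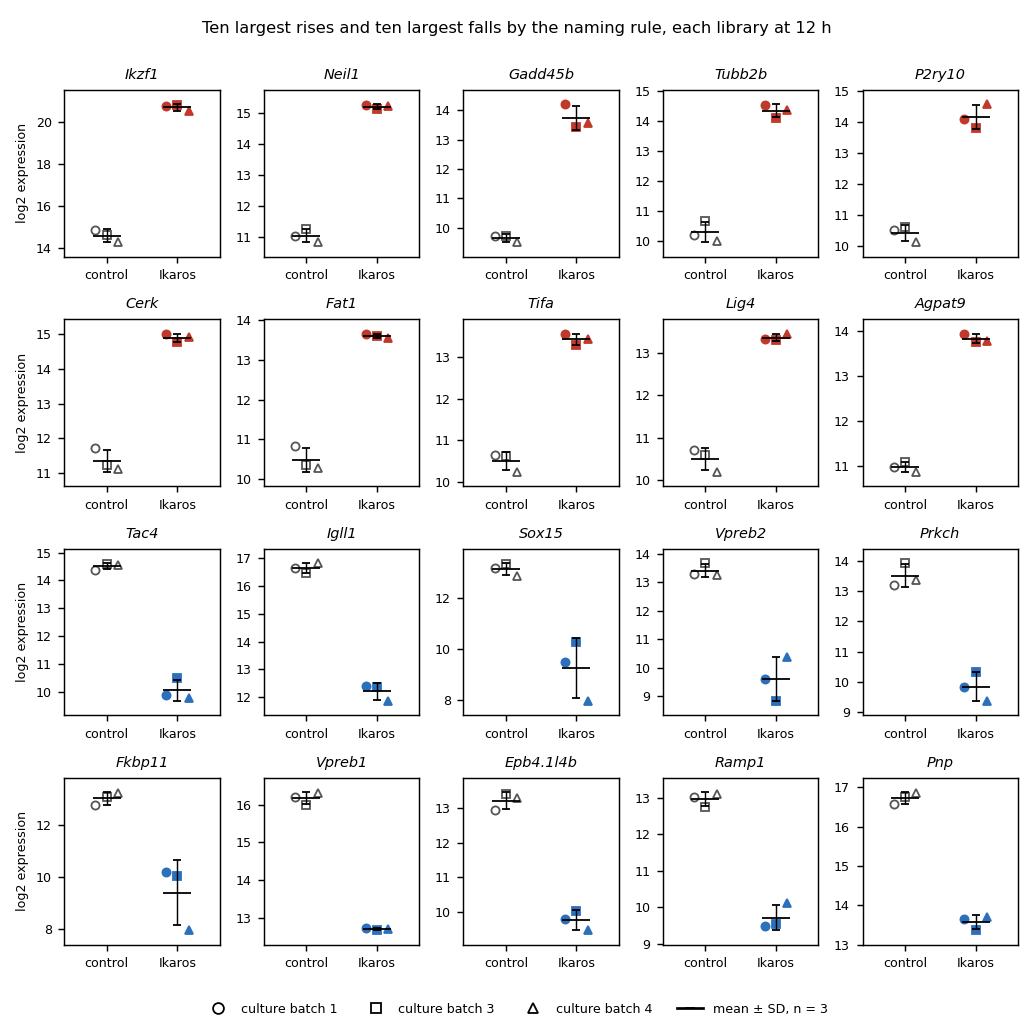
Deposited log2 expression of the 10 largest rises (upper rows) and 10 largest falls (lower rows) in each library at 12 h, control on the left and Ikaros on the right of each panel, with symbols for culture batches 1, 3 and 4 and bars for mean ± SD (n = 3). The lines do not overlap in any panel, which the naming rule required, and the Ikaros libraries are widest apart in Fkbp11 and Sox15.

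The 15 largest falls were, in order, Tac4, Igll1, Sox15, Vpreb2, Prkch, Fkbp11, Vpreb1, Epb4.1l4b, Ramp1, Pnp, Tnf, Gfi1b, Gtf3c5, Cabp4 and Tnnt2, with differences from -4.46 to -2.96. Tac4 encodes the tachykinin hemokinin, which haematopoietic cells make. It was at 14.38, 14.59 and 14.57 in control and 9.89, 10.49 and 9.78 in Ikaros libraries, with a difference of -4.46 ± 0.24 (SE, adjusted p = 4.79e-14), 21.9-fold lower. Sox15, an HMG box transcription factor, was at 13.18, 13.33 and 12.85 in control and 9.48, 10.28 and 7.98 in Ikaros libraries, and Fkbp11, a prolyl isomerase of the endoplasmic reticulum, was at 12.77, 13.08 and 13.23 in control and 10.21, 10.02 and 7.96 in Ikaros libraries. In both the Ikaros library of batch 4 was the lowest, well below the other Ikaros libraries. That the groups did not overlap was required by the naming rule. Tnf, the inflammatory cytokine, was at 13.04, 12.76 and 13.33 in control and 9.13, 10.63 and 10.04 in Ikaros libraries. Prkch, a protein kinase C isoform, fell by 3.66, of which 1.49 was already there at 0 h. Pnp, the purine nucleoside phosphorylase, fell by 3.15 on the log2 scale, but its identifier is named Gm49342 in GENCODE and near-identical copies lie beside it, so this value is uncertain. A further pattern was seen in the positions of the genes and was chosen after the values were known. Gfi1b, a zinc finger repressor, lies between Gtf3c5, a subunit of the transcription factor complex of RNA polymerase III genes, and Tsc1, a brake on mTOR, on chromosome 2. These 3 neighbours were lower by 3.10, 3.03 and 1.65, and they had been lower at 0 h by 0.51, 0.85 and 1.22, each called, so that most of the Tsc1 difference was there before drug. Ralgds on the far side of Gtf3c5 differed by -1.16 (-0.48 at 0 h), and 1700026L06Rik on the far side of Tsc1 was higher by 4.00 at a low level.

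The surrogate light chain fell as a whole. Igll1 (ENSMUSG00000075370, chr16:16860671-16863985), its constant-like part, was at 16.65, 16.46 and 16.82 in control and 12.39, 12.37 and 11.87 in Ikaros libraries, and the difference was -4.43 ± 0.20 (SE, adjusted p = 9.41e-16), 21.6-fold lower. Vpreb1 (ENSMUSG00000059305, chr16:16868403-16870843), its variable-like part and the next gene of the table, was at 16.19, 15.99 and 16.31 in control and 12.74, 12.68 and 12.70 in Ikaros libraries, with a difference of -3.46 ± 0.25 (SE, adjusted p = 1.77e-11). The 3 Ikaros libraries agreed on Vpreb1 to within an SD of 0.03. Vpreb2 (ENSMUSG00000059280, chr16:17980428-17981273), a near copy of Vpreb1 farther along the chromosome, was at 13.29, 13.67 and 13.26 in control and 9.63, 8.85 and 10.37 in Ikaros libraries, with a wider spread among Ikaros libraries. Reads shared by Vpreb1 and Vpreb2 make the split between them uncertain. At 0 h the difference was -0.22 for Igll1 and -0.34 for Vpreb1, neither called, and -1.28 for Vpreb2, called (limma adjusted p = 0.00413). Among the other genes of the receptor, Cd79b, a signalling chain, was at 15.69, 15.54 and 15.56 in control and 17.09, 16.87 and 16.72 in Ikaros libraries and Ighm, the mu heavy chain, at 18.04, 17.54 and 17.42 in control and 18.94, 19.07 and 18.72 in Ikaros libraries, with differences of 1.30 and 1.24, both called. Cd79a (-0.20, adjusted p = 0.117) and Vpreb3 (-0.29, adjusted p = 0.388) were not called. In all, 2 of these 7 genes rose and 3 fell, against 23.0% higher and 22.8% lower over all genes. Their median was -0.29.

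The promoters of the 3 surrogate light chain genes are shown because these genes fell together and their promoters differ. Each line gives the 250 bases before the RefSeq start on GRCm38.p6, read 5′ to 3′ on the strand of the gene, at chr16:16863986-16864235 (minus strand) for Igll1, chr16:16869256-16869505 (minus strand) for Vpreb1 and chr16:17980315-17980564 (plus strand) for Vpreb2. Capitals mark TGGGAA or its reverse complement TTCCCA, the core that Ikaros zinc fingers are known to bind.
Igll1: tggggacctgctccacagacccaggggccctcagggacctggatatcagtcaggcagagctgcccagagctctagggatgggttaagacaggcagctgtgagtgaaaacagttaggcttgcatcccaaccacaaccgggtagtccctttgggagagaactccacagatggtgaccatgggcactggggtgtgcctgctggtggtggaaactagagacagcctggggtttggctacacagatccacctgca
Vpreb1: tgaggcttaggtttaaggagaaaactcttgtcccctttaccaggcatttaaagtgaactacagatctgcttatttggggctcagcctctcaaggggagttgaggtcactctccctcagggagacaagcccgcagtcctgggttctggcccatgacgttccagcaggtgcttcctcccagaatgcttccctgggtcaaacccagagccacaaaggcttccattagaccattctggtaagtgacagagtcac
Vpreb2: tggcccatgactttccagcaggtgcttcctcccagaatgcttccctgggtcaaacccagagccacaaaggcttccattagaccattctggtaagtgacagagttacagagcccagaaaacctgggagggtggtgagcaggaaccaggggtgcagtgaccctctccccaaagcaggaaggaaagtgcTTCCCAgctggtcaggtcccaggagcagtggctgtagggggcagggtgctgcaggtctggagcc
The core occurred once, 64 bases before the start of Vpreb2, and not in the other windows. RefSeq and GENCODE place the starts of the Vpreb genes differently. The whole Vpreb1 window lies inside the Vpreb1 gene as given above from GENCODE, and the later part of the Vpreb2 window, with the core, lies inside the Vpreb2 gene. Vpreb1 and Vpreb2 shared a run from position -106 to -4 of Vpreb1 and from -250 to -148 of Vpreb2, counted back from each start, with 102 of 103 aligned bases identical (99.0%), so the RefSeq starts of the near copies lie at different points of like sequence. Over the RefSeq windows from 250 bases before to 50 after the start, 25.6% of all 32851 promoters held the core on either strand. The share was 21.6% of 3005 promoters of genes called higher, 26.4% of 2789 of genes called lower and 21.5% of 5928 of genes not called. Of the 30 genes named above for their size, 26 had promoters in the RefSeq table, and 9 of their 34 promoters held the core, those of Fat1, Agpat9, Lig4, Tifa, Tac4, Sox15, Vpreb2, Ramp1 and Pnp. A match is a description of the letters and no evidence of binding, and 9243 genes of the expression table could be matched at all.

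Of 20 signalling genes downstream of the receptor, 9 rose and 6 fell, against 23.0% higher and 22.8% lower over all genes, with a median of 0.23. Blnk, the adaptor that links Syk to its targets and is needed for the pre-B transition, was at 11.62, 11.27 and 11.22 in control and 13.82, 13.78 and 13.54 in Ikaros libraries, a clear gap with a difference of 2.34 ± 0.19 (SE, adjusted p = 1.23e-10). Dok3, an inhibitory adaptor, was higher by 2.00 and Syk by 1.29. On the other side, Plcg2, the phospholipase that Blnk recruits, fell by 0.83, Inpp5d, the inositol phosphatase SHIP, by 0.96 and Ptpn6, the tyrosine phosphatase SHP, by 0.78. Btk, the kinase upstream of Plcg2, was lower by 0.60, with SE 0.20, and lost its call in 4 of 16 alternative analyses, among them without replicate 2 of every group (adjusted p = 0.156). Prkcb was at 7.99, 8.88 and 8.01 in control and 4.37, 4.02 and 5.40 in Ikaros libraries, low in both lines, and its difference of -3.70 was no larger than the -4.87 at 0 h. Dok3 and Syk had been lower in Ikaros cells at 0 h, by 0.83 and 0.42, so their sign turned between 0 and 12 h, and both changes were called.

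Of 15 genes that cut and join immunoglobulin genes, 5 rose and 1 fell, against 23.0% higher and 22.8% lower over all genes, with a median of 0.28. Rag1, a subunit of the recombinase, was at 9.91, 9.72 and 9.41 in control and 12.61, 12.02 and 12.02 in Ikaros libraries, and its partner Rag2, the neighbouring gene, at 9.94, 9.39 and 9.85 in control and 11.44, 11.02 and 11.54 in Ikaros libraries. The groups were separate for both, with a difference of 2.54 ± 0.29 (SE, adjusted p = 6.84e-08) for Rag1 and a difference of 1.61 ± 0.16 (SE, adjusted p = 8.68e-09) for Rag2. Lig4, the ligase that seals the broken ends, was at 10.72, 10.59 and 10.21 in control and 13.33, 13.29 and 13.45 in Ikaros libraries, 7.22-fold higher. The ends are also trimmed and filled by polymerases, of which Poll (0.50) and Polm (0.43) were higher. The call of Poll was lost in the blocked fit of the 12 h libraries alone (adjusted p = 0.0552) and that of Polm in 5 of 16 alternatives, among them without replicate 2 of every group (0.125). Xrcc5, the larger Ku subunit that binds the ends, was lower by 0.97, most in batch 4, whereas its partner Xrcc6 (0.29, adjusted p = 0.103) and the kinase Prkdc (-0.18, adjusted p = 0.216) were not called. Dntt, the enzyme that adds bases without a template, was low and not called (0.40, adjusted p = 0.396).

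Of 23 transcription factors of the B lineage 13 were higher and 5 lower, against 23.0% higher and 22.8% lower over all genes. Their median was 0.97. The largest rises were in factors that were low in control cells. Spib, an ETS factor related to PU.1, was at 7.97, 7.30 and 7.18 in control and 12.87, 13.34 and 13.10 in Ikaros libraries, 49.1-fold higher with a difference of 5.62 ± 0.30 (SE, adjusted p = 4.7e-14), and at 0 h its difference was -0.48, not called. Ets1 was at 6.77, 7.36 and 7.01 in control and 13.18, 12.91 and 12.49 in Ikaros libraries, but it was already higher by 4.93 at 0 h, and the change to 12 h (0.87) was not called (adjusted p = 0.2). Bcl6, a repressor that protects pre-B cells during recombination, was at 8.97, 7.31 and 7.44 in control and 11.35, 11.15 and 11.73 in Ikaros libraries, with the control library of batch 1 well above the others and a difference of 2.00 already at 0 h. Bach2, a repressor that guards the pre-B receptor checkpoint, was at 9.88, 9.59 and 9.14 in control and 12.32, 12.33 and 11.50 in Ikaros libraries. Among factors that were high in both lines, Pou2af1, the coactivator OBF, was higher by 1.59, Sox4 by 1.41, Pax5, the keeper of B cell identity, by 1.27 and Foxo1, an activator of Rag genes, by 0.98. Ebf1 (0.21, adjusted p = 0.358) and Tcf3 (0.16, adjusted p = 0.0569), which set up the lineage, were not called. Ikzf3 (Aiolos), the relative of Ikaros, was low at 7.45, 6.48 and 6.10 in control and 8.30, 7.35 and 8.42 in Ikaros libraries, its groups overlapped, and its call (1.34, adjusted p = 0.0384) was lost in 9 of 16 alternatives.

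The 5 factors that fell were Irf4, Lef1, Bcl11a, Irf8 and Runx1. Irf4, which promotes light chain rearrangement, was at 8.93, 9.59 and 8.33 in control and 6.06, 5.67 and 5.77 in Ikaros libraries, 8.67-fold lower, and its gap was -4.56 at 6 h and -1.46 at 18 h. Lef1, a partner of beta-catenin in dividing pro-B cells, was at 14.96, 14.50 and 14.07 in control and 12.63, 12.95 and 12.61 in Ikaros libraries, with a difference of -1.78 ± 0.30 (SE, adjusted p = 2.6e-05). Bcl11a, needed for early lymphocytes, was at 13.57, 13.50 and 13.34 in control and 11.96, 12.20 and 11.64 in Ikaros libraries. Irf8 and Runx1 differed by -0.50 and -0.48, and both calls were lost in the blocked fit of the 12 h libraries alone (adjusted p = 0.0741 and 0.0668), that of Runx1 also without replicate 1 or replicate 2 of every group.

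**Figure D3:**
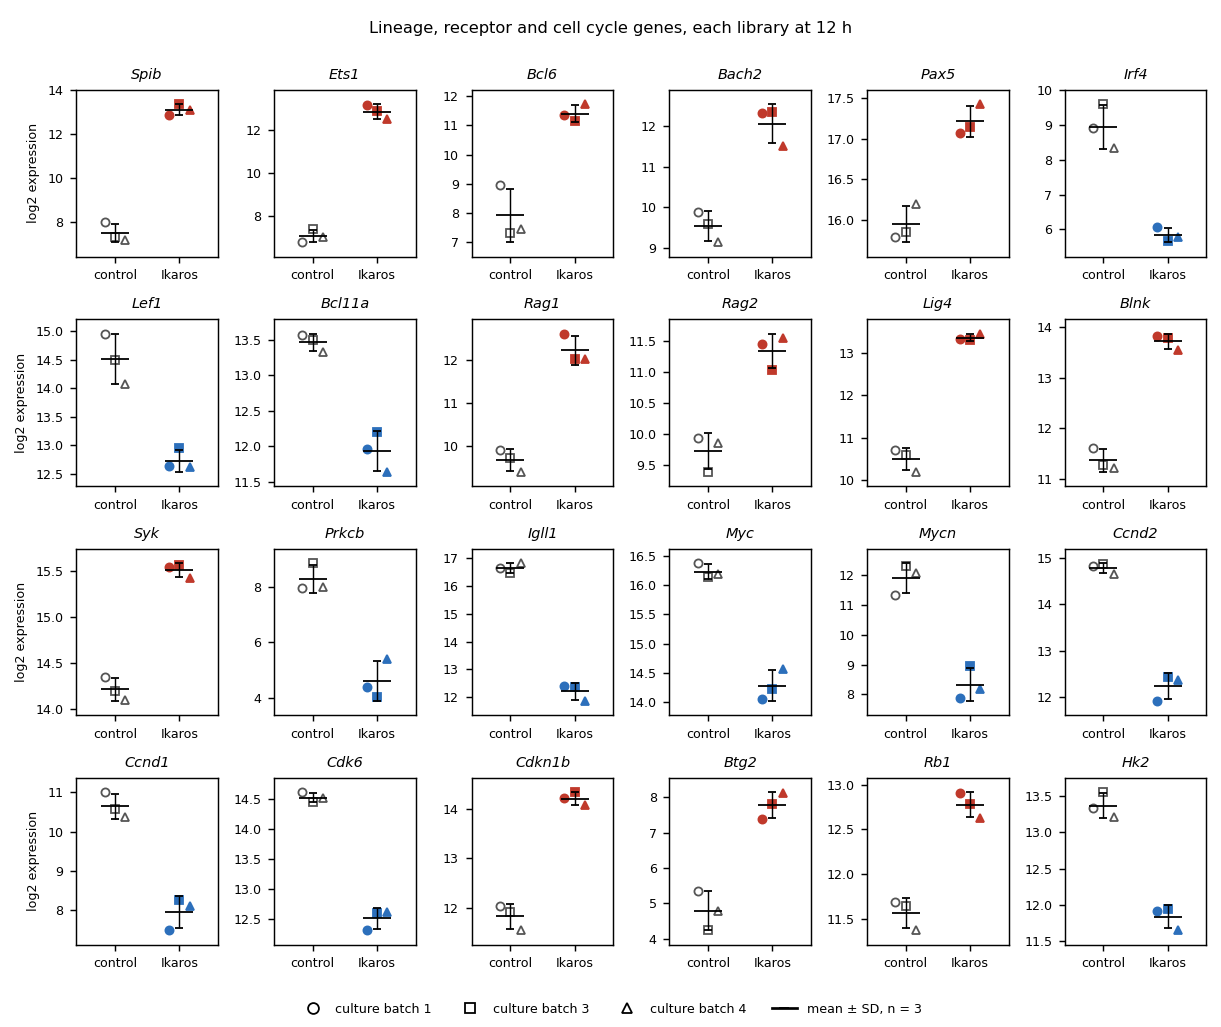
Deposited log2 expression of 24 transcription factors, receptor, recombination and cell cycle genes in each library at 12 h, control on the left and Ikaros on the right of each panel, with symbols for culture batches 1, 3 and 4 and bars for mean ± SD (n = 3). In every panel the 3 libraries of one line lie beyond the 3 of the other, as for Spib (control 7.18 to 7.97, Ikaros 12.87 to 13.34) and Ccnd2 (control 14.65 to 14.86, Ikaros 11.92 to 12.43). The genes were picked from the lists, and members with overlapping groups, such as Ikzf3, are not shown. Among all genes the Ikaros libraries all lay above the control libraries for 25.6% and all below for 25.4%.

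Myc and its network shifted. Myc, the driver of growth in large pre-B cells, was at 16.38, 16.13 and 16.18 in control and 14.06, 14.23 and 14.57 in Ikaros libraries, 3.85-fold lower with a difference of -1.95 ± 0.17 (SE, adjusted p = 3.68e-10), and its difference at 0 h (-0.07) was not called. Mycn, its relative, was at 11.35, 12.31 and 12.09 in control and 7.86, 8.94 and 8.19 in Ikaros libraries, but its difference of -3.59 compares with -4.63 at 0 h. Mxd4 and Mxd1, of the group that competes with Myc for Max, were higher. Mxd4 was at 12.78, 12.30 and 12.45 in control and 15.49, 15.12 and 15.39 in Ikaros libraries, 7.07-fold higher, and Mxd1 was higher by 1.32. Mga, another Max partner, was lower by 1.09. Over 11 genes, 5 rose and 4 fell, against 23.0% higher and 22.8% lower over all genes.

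Regulators of G1, the phase in which pre-B cells come to rest, moved in both directions, with 8 of 25 higher and 7 lower, against 23.0% higher and 22.8% lower over all genes. D-type cyclins, which drive the passage through G1, and their kinase Cdk6 fell. Ccnd1 was lower by 2.70. Ccnd2 was at 14.82, 14.86 and 14.65 in control and 11.92, 12.43 and 12.37 in Ikaros libraries. Cdk6 was at 14.60, 14.44 and 14.50 in control and 12.32, 12.61 and 12.62 in Ikaros libraries. The groups were separate for all 3 genes, with a difference of -2.54 ± 0.18 (SE, adjusted p = 1.51e-11) for Ccnd2. Before drug Ccnd1 and Ccnd2 had been higher in Ikaros cells, by 1.90 and 0.70, so the changes from 0 h were larger, -4.60 and -3.23. Several inhibitors rose. Cdkn1b, the inhibitor p27, was at 12.04, 11.91 and 11.55 in control and 14.22, 14.34 and 14.08 in Ikaros libraries, and Btg2, an antiproliferative factor, at 5.35, 4.25 and 4.78 in control and 7.38, 7.82 and 8.11 in Ikaros libraries. Rb1, the retinoblastoma protein, was higher by 1.21, Btg1 by 1.17 and Cdkn2c by 0.91. Cdkn1a, the p53 target p21, was not called (0.13, adjusted p = 0.574).

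Most genes of the later cycle were not called at 12 h, as held for 6912 of all 12762 genes. Of 40 genes of S phase, 4 rose, 10 fell and 26 were not called, with a median of -0.11. The shares over all genes were 23.0% higher and 22.8% lower, and the S phase falls were near the latter. The largest fall was in Tyms, the thymidylate synthase, by 1.44, beside Orc1, a subunit of the origin complex (-0.92), and Tk1, a thymidine kinase (-0.71). Of 35 genes of mitosis and G2/M, 5 rose, 2 fell and 28 were not called, with a median of 0.05. Ccnb1, a mitotic cyclin, was lower by 1.19 and Kif23, a kinesin of cytokinesis, was higher by 0.63.

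Genes for the making of ribosomes were lower in Ikaros cells. In ribosome biogenesis 39 of 40 genes were lower and none was higher, against 22.8% lower over all genes, with a median of -1.11 and a range of -1.73 to -0.24. The exception was Nop10 (-0.24, adjusted p = 0.212), whose groups overlapped. Nucleolin, Ncl, an abundant nucleolar RNA-binding protein, was at 17.46, 17.78 and 17.56 in control and 16.23, 16.37 and 15.91 in Ikaros libraries. Nolc1, a nucleolar chaperone, was at 15.28, 15.43 and 15.28 in control and 13.86, 14.04 and 12.90 in Ikaros libraries, lowest in batch 4, and Utp20, a subunit of the processome of the small ribosomal subunit, was lower by 1.68. In RNA polymerase I machinery 9 of 15 genes fell and 1 rose (median -0.56), led by its subunit Polr1b at 13.90, 13.91 and 13.82 in control and 11.78, 12.11 and 11.95 in Ikaros libraries. The riser, Polr1d (0.39), lost its call in 8 of 16 alternatives. Of 32 cytosolic ribosomal proteins 7 were lower and none was higher (median -0.31), a share near the 22.8% lower over all genes. For 13 of the 32 the Ikaros libraries all lay below the control libraries, as they did for 25.4% of all genes. None of the 7 called genes kept its call in all 16 alternatives.

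Genes that supply amino acids and nucleotides were mostly lower too, against 23.0% higher and 22.8% lower over all genes. Among 16 genes of purine and pyrimidine synthesis 15 were lower and none higher (median -0.75). Impdh1, which commits purines to guanine nucleotides, was at 15.48, 15.32 and 15.35 in control and 13.72, 13.70 and 13.55 in Ikaros libraries, with a difference of -1.73 ± 0.09 (SE, adjusted p = 1.5e-14), and Ppat, the entry enzyme of the purine route, was lower by 1.54. Among 20 aminoacyl tRNA synthetases 15 fell and 1 rose (median -0.48), among 13 amino acid transporters 9 fell and 2 rose (median -0.74), and among 11 genes of serine and one-carbon metabolism 7 fell and none rose (median -0.38). Iars, the isoleucyl synthetase, was lower by 1.04, the neutral amino acid transporter Slc1a4 by 1.38 and the folate enzyme Shmt1 by 1.53. Slc7a5, the leucine transporter, was at 15.76, 15.52 and 15.38 in control and 14.34, 14.85 and 14.70 in Ikaros libraries, and its call was lost without replicate 1 of every group (adjusted p = 0.0611). Slc43a2, another carrier of large neutral amino acids, went the other way and was higher by 1.22.

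Glycolysis was mixed at this time. Of 22 genes 4 rose, 4 fell and 14 were not called, against 23.0% higher and 22.8% lower over all genes. The median was 0.23. Hk2, the hexokinase that traps glucose, was at 13.34, 13.56 and 13.21 in control and 11.92, 11.95 and 11.65 in Ikaros libraries, with a difference of -1.53 ± 0.15 (SE, adjusted p = 2.37e-09), and Pfkm, a phosphofructokinase, was lower by 0.62. Ldha, the lactate dehydrogenase, was at 17.39, 17.66 and 17.67 in control and 17.50, 17.43 and 17.35 in Ikaros libraries with overlapping groups (-0.14, adjusted p = 0.625), and Slc2a1, the main glucose transporter, was not called (0.23, adjusted p = 0.479). The 4 rises (Tpi1, Aldoa, Slc16a1 and Slc2a3) were 0.31 to 0.70, and each lost its call in at least 7 of 16 alternatives. Of 28 genes of oxidative phosphorylation 4 rose, 4 fell and 20 were not called, a smaller share of calls than over all genes. None of the 8 called ones kept its call in all alternatives.

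Several lists of surface and endosomal genes held more rises than falls, whereas over all genes 23.0% were higher and 22.8% lower. Of 7 MHC class II genes present 5 rose and 1 fell (median 1.05). H2-Oa, which tunes peptide loading in B cells, was at 8.09, 7.90 and 7.47 in control and 12.98, 12.60 and 13.02 in Ikaros libraries, 33.0-fold higher with a difference of 5.04 ± 0.21 (SE, adjusted p = 2.65e-16), its partner H2-Ob was higher by 2.78 and the invariant chain Cd74 by 1.65. Of 21 lysosomal genes 12 rose and 1 fell (median 0.46). Ctss, the protease that trims the invariant chain, was higher by 2.88, and the sialidase Neu1 was at 11.66, 11.98 and 12.14 in control and 13.53, 13.46 and 13.71 in Ikaros libraries. Of 15 adhesion and migration receptors 8 rose and 3 fell (median 0.45). Itgb7, an integrin chain of gut homing, was at 4.58, 5.13 and 4.23 in control and 8.66, 8.72 and 9.66 in Ikaros libraries, low in control cells, and Icam1 was higher by 1.42. Cd44, the hyaluronan receptor, was at 12.60, 12.54 and 12.26 in control and 10.54, 10.20 and 10.63 in Ikaros libraries and Spn (CD43), which marks the earlier B cell stages, at 13.96, 13.54 and 12.87 in control and 11.26, 11.01 and 11.24 in Ikaros libraries, both lower without overlap.

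In the axis of the interleukin 7 and interleukin 2 receptors 6 of 16 genes rose and 4 fell (median -0.13). Beside this list and the next ones stand 23.0% higher and 22.8% lower over all genes. The shared receptor chain Il2rg was at 10.68, 11.05 and 10.88 in control and 12.33, 12.70 and 12.50 in Ikaros libraries, and Pim2, a survival kinase, was higher by 1.46. Socs2, a feedback inhibitor that STAT5 turns on, was at 13.10, 13.63 and 13.59 in control and 11.75, 12.20 and 11.46 in Ikaros libraries, with a difference of -1.64 ± 0.24 (SE, adjusted p = 3.01e-06). Jak3, the kinase that binds Il2rg, was lower by 0.85. The Il7r value (0.47, adjusted p = 0.0205) lost its call in 6 of 16 alternatives. Of 9 Notch genes 4 fell and 2 rose (median -0.29). Hes5, a repressor that Notch turns on, was at 11.57, 11.44 and 11.83 in control and 7.59, 7.75 and 6.82 in Ikaros libraries, 18.7-fold lower, Dtx4 was lower by 2.21 and Nrarp, a feedback inhibitor, by 1.43, whereas Dtx3 was higher by 1.29. Of 22 Kruppel-like and immediate early genes 8 rose and 6 fell (median 0.41). Spry1, an inhibitor of receptor tyrosine kinase signalling, was at 12.23, 12.23 and 11.87 in control and 8.67, 8.98 and 8.52 in Ikaros libraries. Of the phosphatases that act on MAP kinases in this list, Dusp6 was lower by 1.78 and Dusp1 was higher by 1.42, with overlapping groups and a call lost in 8 of 16 alternatives. Jun was widely spread at 10.48, 12.18 and 9.56 in control and 13.77, 13.80 and 11.42 in Ikaros libraries, its groups overlapped, and its call was lost with the 12 h libraries alone (adjusted p = 0.102) and without replicate 1 of every group (0.114).

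Genes that respond to Foxo factors and to PI3K rose and fell in like numbers, 6 and 8 of 20 (median -0.02). All list counts here stand beside 23.0% higher and 22.8% lower over all genes, and several are near those shares. Sesn3, a Foxo target that restrains mTOR, was at 7.06, 6.65 and 6.28 in control and 10.58, 10.38 and 10.82 in Ikaros libraries, and its difference of 3.93 was 3.91 before drug. Pik3ip1, an inhibitor of PI3K, was higher by 1.15 with 0.07 at 0 h, and Foxo3 by 0.92. Trib3, a stress-induced pseudokinase, was lower by 1.69. In the Bcl2 family 5 of 12 fell and 1 rose (median -0.18). The riser was Bcl2l11 (Bim), which promotes cell death, higher by 1.46, and Bok was lower by 2.76 and the survival factor Bcl2l1 by 0.82. Of 13 p53 targets 4 rose and 4 fell (median -0.09), with Trp53inp1 higher by 3.11 and Aen lower by 1.56. In 20 endoplasmic reticulum genes 7 fell and 3 rose (median -0.23), with Fkbp11 lowest while Xbp1 itself was higher by 0.90. Sterol synthesis (7 rose and 4 fell of 22, median 0.17), the interferon response (6 and 2 of 14, median 0.26), MHC class I presentation (4 and 2 of 11, median 0.25) and the NuRD complex, a partner of Ikaros (5 and 3 of 13, median 0.02), were mixed. Within NuRD the remodeller Chd3 was higher by 1.24, the reader Mbd2 by 1.08 and Mta3 by 0.93.

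**Figure D4:**
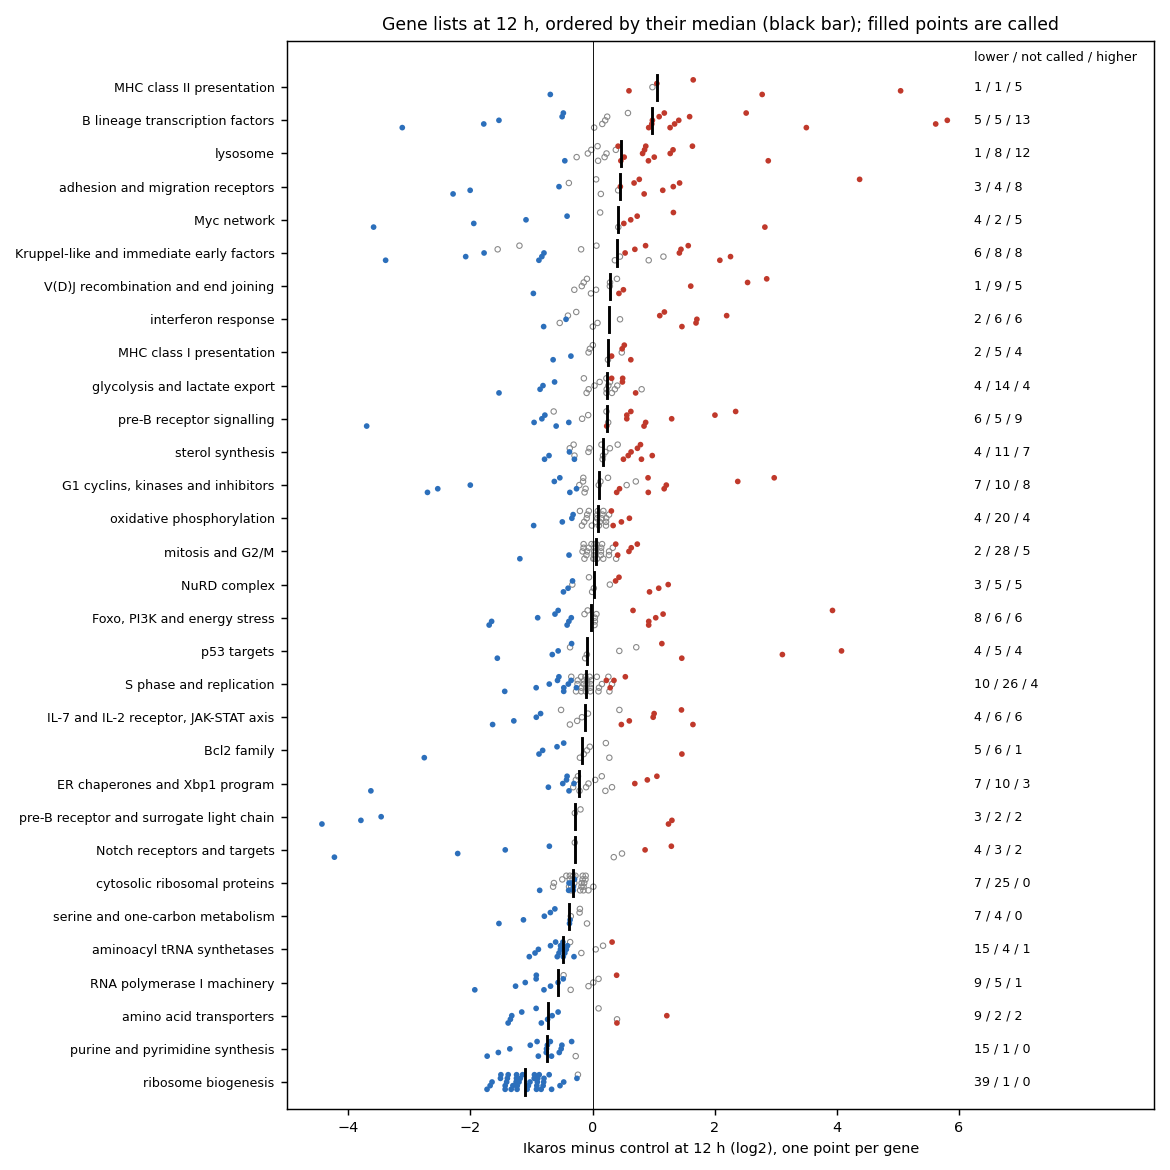
Difference between Ikaros and control at 12 h (log2, horizontal axis) for each member of the 31 gene lists, 1 point per gene, filled where called higher (red) or lower (blue) and open where not called, with a black bar at the median of the list. MHC class II presentation has the highest median at 1.05 and ribosome biogenesis the lowest at -1.11, and the counts lower, not called and higher stand on the right.

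The lines were not equal before drug, so the 12 h difference was also set against the difference at 0 h. That change was called upward for 1967 genes, which is 15.4% of genes, and downward for 1828, which is 14.3%. Of the 5850 genes called at 12 h, 3434 (58.7%) had such a change. At 0 h 1063 genes differed, and 735 of them differed at 12 h too, which is 12.6% of the 12 h calls and 69.1% of the 0 h calls, 539 in the same and 196 in the opposite direction. The 0 h cells were grown apart from the time course and without drug by the methods, although the labels list the drug for them, so this step also carries drug and culture. In ribosome biogenesis 33 of 40 genes had moved down from 0 h, in purine and pyrimidine synthesis 12 of 16 and among tRNA synthetases 12 of 20. Among lysosomal genes 11 of 21 had moved up, and among B lineage factors 9 of 23 up and 4 down. Without replicate 1 or replicate 2 of every group 2228 and 1548 genes were called in place of 3795.

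Setting 12 h against 6 h shows what had been added in these hours. The difference between the lines moved up for 1144 genes (8.96% of genes) and down for 899 (7.04%). Of 4759 genes called at 6 h, 3139 were called at 12 h, which is 66.0% of the 6 h and 53.7% of the 12 h calls, and 3002 of these had the same sign. Among genes called at 12 h, 1549 had moved since 6 h, 1496 of them in the direction of the 12 h difference. The same 12 h libraries enter the difference and the change, so this agreement of sign is largely built in. Tifa, an adaptor of TRAF signalling, moved most among genes that were called at 12 h without overlap and had a mean at or above the median gene. It was at 10.64, 10.62 and 10.25 in control and 13.57, 13.31 and 13.44 in Ikaros libraries at 12 h, a difference of 2.94, against -0.17 at 6 h, and the change of 3.11 ± 0.19 (SE) was called (limma adjusted p = 3.95e-11). Blnk went from -0.48 to 2.34 and Rere, a corepressor, from 0.48 to 2.52. Rag1 and Rag2 belong here too, from -0.55 and 0.28 at 6 h, neither called, as do Spib (2.62 to 5.62), H2-Oa (2.17 to 5.04) and Zeb2 (-0.63 to 1.17), a repressor of lymphocyte differentiation. Downward, Tac4 went from -2.17 to -4.46, Hes5 from -1.69 to -4.23, Phlda1 from -0.69 to -2.56 and Etv4, an ETS factor induced by MAP kinase, from -0.12 to -1.85. By lists, 10 of 20 tRNA synthetases, 11 of 40 ribosome biogenesis genes, 5 of 13 amino acid transporters and 9 of 22 sterol genes had moved down, and 8 of 23 B lineage factors and 9 of 21 lysosomal genes up. Igll1 (-0.63), Ccnd2 (-0.62) and Lef1 (0.12) had no called change in these hours. Of these changes only those of the 12 genes named by size were run in the alternatives. There the calls of Phlda1 and Etv4 were lost without replicate 1 of every group (adjusted p = 0.0674 and 0.0508), and those of Tifa, Blnk, Rere and Tac4 were kept. With only the 6 and 12 h libraries in the fit 509 genes were called in place of 2043, and without replicate 1 or replicate 2 of every group 388 and 436.

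**Figure D5:**
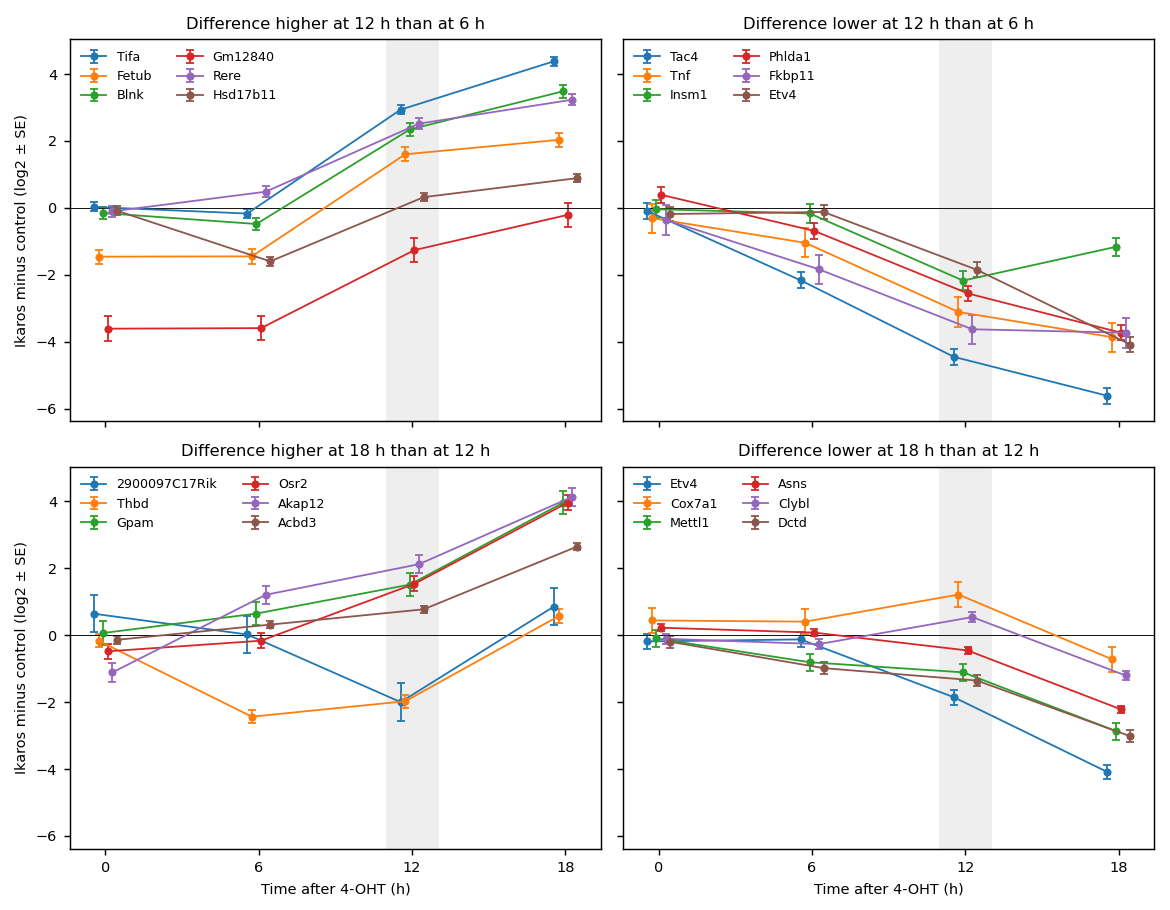
Difference between Ikaros and control (log2 ± SE from limma, vertical axis) at 0, 6, 12 and 18 h after 4-OHT (horizontal axis) for the 6 genes in each direction with the largest called changes between 6 and 12 h (upper panels) and between 12 and 18 h (lower panels) among genes that were called at 12 h without overlap and had a mean at or above the median gene, 12 h shaded. Tifa runs from -0.17 at 6 h to 2.94 at 12 h, and Thbd from -1.97 at 12 h to 0.57 at 18 h.

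From 12 to 18 h the difference moved up for 707 genes (5.54% of genes) and down for 790 (6.19%). This contrast and the previous one share the 12 h libraries. Of 7423 genes called at 18 h, 4782 had been called at 12 h, which is 64.4% of the 18 h and 81.7% of the 12 h calls, and 4733 of these kept their sign. Thbd, the thrombin receptor thrombomodulin, was at 12.95, 12.46 and 12.45 in control and 10.53, 10.48 and 10.92 in Ikaros libraries at 12 h, and its difference turned from -1.97 to 0.57. Rag1 went on from 2.54 to 5.28, Bach2 from 2.51 to 5.30 and Syk from 1.29 to 2.07, and all 3 changes were called. Spib (0.19), Pax5 (-0.29) and Igll1 (0.56) had no called change. In glycolysis 12 of 22 genes moved down after 12 h and 1 moved up, and the median of the list went from 0.23 to -0.70. Ldha went from -0.14 to -1.62 and Slc16a3, a lactate exporter, from 0.80 to -2.60. Of 20 tRNA synthetases 15 moved down, of 40 ribosome biogenesis genes 19, of 11 serine and one-carbon genes 7 and of 16 genes of nucleotide synthesis 9. Asns, the asparagine synthetase, went from -0.45 to -2.22 and Etv4 from -1.85 to -4.09. In sterol synthesis 7 of 22 moved up and none down, and in oxidative phosphorylation 1 of 28 moved down and none up. Without the control library of batch 1 at 12 h 858 genes were called in place of 1497, with only the 12 and 18 h libraries 589, and without replicate 1 or replicate 2 of every group 285 and 143.

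Of the 5850 genes called at 12 h, 2645 (45.2%) were called in the same direction in each of the 16 alternative analyses that held them. The filter on low levels kept 9571 genes, and the GC and length setting held 12592. Genes outside these were not judged there and count as kept if the other alternatives kept them. The counts of calls lost out of 16 were made in the same way. Among the lists this held for 34 of the 39 called ribosome biogenesis genes, 15 of the 18 called B lineage factors, 11 of the 15 called nucleotide synthesis genes, 9 of the 15 called G1 genes, and all 5 called genes of the pre-B receptor. It held for 5 of the 16 called tRNA synthetases and for 4 of the 14 called S phase genes.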

How the data were processed

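RNA-seq libraries of 36 cultures (2 lines, 6 times, 3 culture batches each) were analysed in 1 deposited table of 12762 genes. The log2 values were made by the authors: reads were trimmed, mapped with TopHat2 to mm10 keeping a unique best hit, counted with HTSeq, normalized for GC content and length with cqn, and adjusted for library preparation with ComBat. The log base, absent from the file, was taken to be that of cqn, and a constant had been added so that the lowest value is 1. The libraries were stranded, and the strand setting of HTSeq is not given in the sources used here. No counts were used, so depth and counting error are unknown, and adjustment before deposit can make errors too small.

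Groups and culture batches were taken from the labels. A linear model with 12 group means over all 36 libraries was fitted with limma 3.58.1 (R 4.3.3, eBayes, two-sided), the Benjamini-Hochberg adjustment ran over all genes, and genes were called at an adjusted p under 0.05. Contrasts were Ikaros minus control at 12 h and its change against 0, 6 and 18 h. SD are over the 3 libraries of a group, which are repeat cultures of 1 pool of cells, and SE are limma's, from variances pooled over all 36 libraries and moderated across genes. A test of the 12 h contrast on simulated data, with group means and spreads taken from these data, was run after the fit. Named genes were the 15 largest rises and 15 largest falls at 12 h (called, groups not overlapping, mean at or above the median gene), the 6 largest in each direction of the 2 later changes, and members of 31 gene lists and 6 marker lists. The members, lists and tests were chosen with earlier results of these data known. Some results are not reported here. Gene positions came from GENCODE M21 (GRCm38), promoters from RefSeq (GRCm38.p6), by symbol.

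Because the labels give libraries of 1 batch number a shared culture batch, the numbers pair the libraries. The correlation of deviations from the group means at 12 h was -0.06, 0.03 and 0.18 in batches 1, 3 and 4. The alternatives were a culture batch block, only the times compared, both together, a filter on low levels, quantile normalization, trend and robust settings, removal of GC and length trends, and leaving out replicates or single libraries. Values were handled with Python 3.11.15, pandas 2.3.3 and Biopython 1.88.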

Additional observations from a re-analysis of the deposited data

Results flagged for a closer look

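Differences between Ikaros and control that themselves differed between times were picked out, each tested in limma as a contrast of the differences at 2 times (Benjamini-Hochberg adjustment over all genes). Such a change was called for 3795 genes from 0 to 12 h, for 2043 from 6 to 12 h and for 1497 from 12 to 18 h. Groups of 3 libraries were not tested for outlying samples.

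Between 6 and 12 h, the 6 largest upward changes (log2) among genes that were called at 12 h, with groups that did not overlap and a mean at or above the median gene, were in Tifa (3.11), Fetub (3.05), Blnk (2.83), Gm12840 (2.33), Rere (2.04) and Hsd17b11 (1.92). The 6 largest downward changes were in Tac4 (-2.29), Tnf (-2.07), Insm1 (-2.01), Phlda1 (-1.87), Fkbp11 (-1.79) and Etv4 (-1.73). The call of Fkbp11 was lost in 11 and that of Tnf in 6 of 16 alternative analyses. That of Gm12840 was lost in 3, that of Insm1 in 2, and those of Phlda1 and Etv4 in 1 each. In Gm12840 the difference went from -3.60 at 6 h to -1.26 at 12 h, toward no difference.

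Between 12 and 18 h, under the same limits, the 6 largest upward changes were in 2900097C17Rik (2.86), Thbd (2.54), Gpam (2.45), Osr2 (2.43), Akap12 (2.01) and Acbd3 (1.87). The 6 largest downward changes were in Etv4 (-2.23), Cox7a1 (-1.93), Mettl1 (-1.76), Asns (-1.76), Clybl (-1.75) and Dctd (-1.67). Gpam, an acyltransferase of glycerolipid synthesis, went from 1.51 to 3.96, and its call was lost without replicate 2 of every group (adjusted p = 0.127). The call of 2900097C17Rik was lost in 6 of 16 alternatives, that of Cox7a1 in 4, and those of Akap12 and Mettl1 without replicate 2 of every group.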

How the results depend on the processing

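Replicates 1, 2 and 3 are culture batches 1, 3 and 4, and 1, 2 and 4 at 0 h. The number of genes called at 12 h ranged from 4281 to 5911 with only the 12 h libraries, the filter on low levels, quantile normalization, trend and robust settings or GC and length trends removed, and from 3769 to 5921 with a replicate or library left out. With the replicate block it was 6374, and with the block and only the 12 h libraries 3483. For the change from 0 h, leaving out gave 1548 to 3924 genes and the block 4334. For the change from 6 h, only the 2 times compared gave 509 genes (64.4% upward, against 56.0% of 2043), the block 2707, the block with only these times 827, and leaving out 388 to 2106, with 66.5% upward without replicate 1. For the change to 18 h, only the 2 times gave 589, the block 2136, the block with only these times 1211, and leaving out 143 to 1538, with 858 without the control library of replicate 1 at 12 h. Fewer libraries in a fit leave fewer degrees of freedom, and other causes of these shifts were not tested. Of the single gene values run in the alternatives, 9830 kept their side of the threshold, 627 lost a call and 155 gained one. In 1 the sign turned together with a call, for Xrcc4, an end-joining scaffold. It was at -0.09 as reported, -0.33 without replicate 2 and 0.37 without replicate 3 (limma adjusted p = 0.0375). Turns of sign with no call in either fit were not counted apart and fall within the 9830. Of the counts and medians of the gene and marker lists, 1561 values kept within 1.5 times the count or 1 SD of the median between batches and 214 did not, and the filter left no myeloid marker. The unknown depth limits what can be said of genes at low levels.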

Other observations

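The genes named by size had a mean level at or above the median gene. Without that limit larger differences were found, and these genes were chosen after their values were seen. Ell3, an elongation factor of RNA polymerase II, was at 4.04, 3.69 and 3.94 in control and at 11.19, 11.14 and 11.74 in Ikaros libraries, a difference of 7.46 on the log2 scale. The chemokine receptor Ccr2 was at 12.17, 11.66 and 12.00 in control and at 4.43, 4.75 and 5.69 in Ikaros libraries, a difference of -6.98. The next rises were in Itgb3, an integrin chain (7.15, with 3.44 at 0 h), and Klra1, a lectin-like receptor (6.58, with 3.10 at 0 h). The next falls were in Scn4b, a sodium channel subunit (-5.79, with -3.54 at 0 h), Tuba8, an alpha tubulin (-5.75), and Sost, an inhibitor of Wnt signalling (-5.40, with -4.98 at 0 h). Values near the floor of a normalized table can stand for few reads, so the sizes of these differences are uncertain.

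Around Igll1 on chromosome 16, Vpreb1, Top3b and Ppm1f fell by 3.46, 0.51 and 0.95 at 12 h, while the neighbour Dnm1l (-0.05) was not called.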
